A study of Mus musculus with 7 samples.

Results

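The step from day 1 to day 2 of retinoic acid treatment was followed in CCE, a mouse embryonic stem cell line, by comparing the day 2 library with the day 1 library over 10760 of the 12071 gene symbols in the deposited table. A symbol with several listed transcripts was represented by the transcript with the highest mean over the 7 daily libraries, and it was kept when its level was 7 or more on day 1 or day 2. A level is the log2 of a scaled read count per transcript, not divided by transcript length, so levels are compared between days and not between genes. At this boundary 2200002D01Rik was kept with 5.54 on day 1 and 7.01 on day 2, and Atp4a was left out with 6.99 and 6.84.

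Both libraries came from cells on gelatin without feeders that had lost leukemia inhibitory factor (LIF, the cytokine that keeps mouse stem cells undifferentiated) and had received 5 µM retinoic acid, for 1 day in the first and 2 days in the second. The earlier reference, day 0, had LIF and DMSO. The medium was renewed on alternate days, and the labels do not say whether each day was a separate culture, so duration of treatment and age of the medium cannot be told apart. Each day had 1 library, so no difference below carries a replicate error or a test. Intervals are exact binomial (Clopper-Pearson) 95% intervals of the recovered reads and cover counting error only. In these bulk samples fewer cells of a type and less RNA per cell cannot be told apart.

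As background, retinoic acid binds nuclear receptors that sit on DNA with a retinoid X receptor partner, and Hox genes and the enzymes that degrade the ligand are among their direct targets. In stem cell cultures that lose LIF the pluripotency factors are silenced while lineage programs such as extraembryonic endoderm, mesenchyme and neural progenitors can appear. Serum response factor drives many contractile and actin genes through the CArG box, and BMP ligands act through SMAD proteins on the Id genes, which encode inhibitors of helix-loop-helix factors.

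On day 2, 1128 symbols stood at least 2-fold above day 1, which is 10.5% of those kept, and 454 stood at least 2-fold below it, which is 4.22%. At 4-fold the counts were 333 higher (3.09%) and 98 lower (0.911%), and 71.3% of the 2-fold differences were upward. The median difference over all symbols kept was −0.0035, with quartiles of −0.35 and 0.43. In each of these 1582 symbols the counting interval left out 0, but the level filter and the 2-fold bound together set that outcome in advance. In 734 of the higher and 270 of the lower ones the whole interval lay beyond 2-fold. A symbol that was kept through only 1 of the days had to lean that way: 732 were kept through day 2 alone, of which 449 counted as higher, and 336 through day 1 alone, of which 142 counted as lower. Among the 9692 symbols at 7 or more on both days, 679 (7.01%) were higher and 312 (3.22%) lower. Over the whole table of 12071 symbols, 1352 (11.2%) were higher and 545 (4.51%) lower.

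The 2 libraries were close in depth, with 11462785 recovered reads on day 1 and 11198956 on day 2, and with medians of 293 and 308.5 reads per listed transcript. The day 6 library, used here only to show courses, had the fewest reads (7194325) and a median of 90 per transcript. From day 5 to day 6 some short transcripts stood higher, such as Tagln (1431 bases, 12.19 to 14.44). Some long ones stood lower, such as Peg3 (6633 bases, 16.06 to 9.56). Others went the opposite way for their length, such as Srgn (941 bases, 11.93 to 11.58). The part of transcript length in day 6 levels was not tested, so these levels are not read as a late rise or fall. The difference from day 1 to day 2 tended to be larger for longer transcripts (Spearman 0.21 across genes, given as a description, and 0.21 also for the preceding step). With transcripts ordered by length into 4 bins of near-equal size, from the shortest to the longest, the share at least 2-fold higher was 7.10%, 9.14%, 10.9% and 14.8%, and the share at least 2-fold lower was 5.35%, 4.39%, 4.05% and 3.09%. The part of length in the results below was not tested beyond an alternative that removed the length trend.

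Symbols were then sorted by what they had done from day 0 to day 1, a step at which 970 (9.01%) stood at least 2-fold higher and 300 (2.79%) lower. Most symbols past 2-fold on day 2 had stayed within 2-fold at the first step, but so had most of all symbols kept. Upward, 694 were first higher on day 2, against 386 that continued (223 after quantile normalization and 222 with a pseudocount of 32 scaled units). Downward, 304 were first lower, against 81 that continued. Another 69 had been at least 2-fold higher on day 1 and then stood at least 2-fold lower, and 48 did the opposite. The 386 that continued upward were part of 1128 higher symbols, while 9.01% of all symbols kept had passed 2-fold upward at the first step. The 81 that continued downward were part of 454 lower symbols, against 2.79% of all. Earlier movers in the same direction were thus more frequent among these symbols than among all kept, and the first higher and first lower counts alone do not show a late onset. Of the first higher symbols, 395 had differed by less than 0.5 log2 units between day 0 and day 1, and of the first lower ones 204 had. The counting interval of the first step held 0 for 358 of the 694 first higher and 83 of the 304 first lower symbols. The others had already differed on day 1 beyond counting error, by less than 2-fold, so first means first past 2-fold. Median differences on day 2 were 1.45 for first higher, 1.61 for continued higher, −1.27 for first lower, −1.69 for continued lower, −1.68 for the higher then lower group and 1.80 for the lower then higher group. The steps share the day 1 library, and an error in its count moves a gene's 2 differences in opposite directions, which favours the reversed groups and works against the continued ones.

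**Figure D1:**
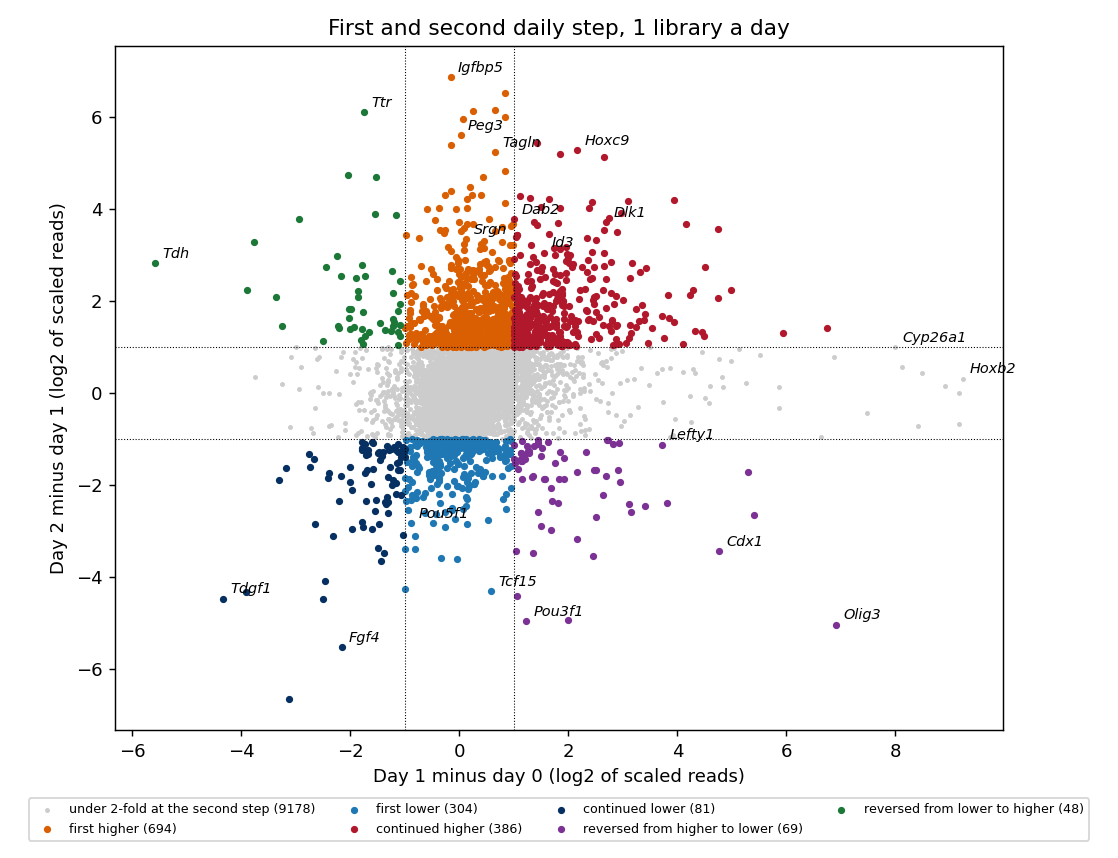
Difference from day 0 to day 1 (x axis) against the difference from day 1 to day 2 (y axis), both in log2 of scaled reads, 1 point per symbol and 1 library a day. Dotted lines mark 2-fold, and colours mark the 6 groups, in which 694 symbols first stood higher on day 2 and 304 first stood lower, while Hoxb2 and Cyp26a1 lie far right and below 2-fold upward.

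Igfbp5, Peg3 and Tagln were among the clearest genes that first stood higher on day 2. Igfbp5, which encodes a binding protein of insulin-like growth factors (mm9 chr1:72904638-72921439, minus strand), had levels of 5.11, 4.95, 11.83, 12.27, 12.88, 14.12 and 8.16 from day 0 to day 6. It had 18 reads on day 1 and 2062 on day 2, a 117-fold difference (log2 6.87, interval 6.21 to 7.63). Peg3, a paternally expressed zinc finger gene (chr7:6658670-6683130, minus strand), had levels of 10.09, 10.11, 15.72, 15.75, 16.10, 16.06 and 9.56 over the 7 days. Its 48.8-fold difference rested on 643 and 30646 reads (log2 5.61, interval 5.49 to 5.72). Both genes were level between days 0 and 1, and both kept the high level through day 5.

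Tagln, the actin-binding protein transgelin that marks smooth muscle (chr9:45737710-45743981, minus strand), stood at 5.33, 5.99, 11.23, 13.20, 12.08, 12.19 and 14.44 from day 0 to day 6. The day 2 library had 1368 reads of Tagln against 37 on day 1, a 37.8-fold difference (log2 5.24, interval 4.77 to 5.75). Srgn, the proteoglycan serglycin, which parietal endoderm and blood cells make (chr10:61957175-61970503, minus strand), stood at 5.94 and 6.07 on days 0 and 1, 9.42 on day 2 and between 11.27 and 11.93 afterwards (10.2-fold, log2 3.35, interval 2.87 to 3.86). For Tagln and Srgn each later library was also above days 0 and 1.

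Several of the largest first differences started from a handful of reads and have wide intervals. Gjb2, the gap junction protein connexin 26, had 2 reads on day 1 and 181 on day 2 (log2 6.53, interval 4.66 to 9.59), and its level of 8.32 on day 2 was above its level on each other day (0.94 to 4.80). Nr2f1, an orphan nuclear receptor also called COUP-TFI, went from 4 reads to 275 (log2 6.14, interval 4.76 to 8.02). The serine protease gene Prss23 had 7 and 490 reads (log2 6.16) and Tnfsf9, a cytokine of the tumor necrosis factor family, 7 and 423 reads (log2 5.95). The lowest value of each library corresponds to 1 read and may stand for no read at all. Of the 694 first higher symbols, 3 had 3 reads or fewer on day 1.

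**Figure D2:**
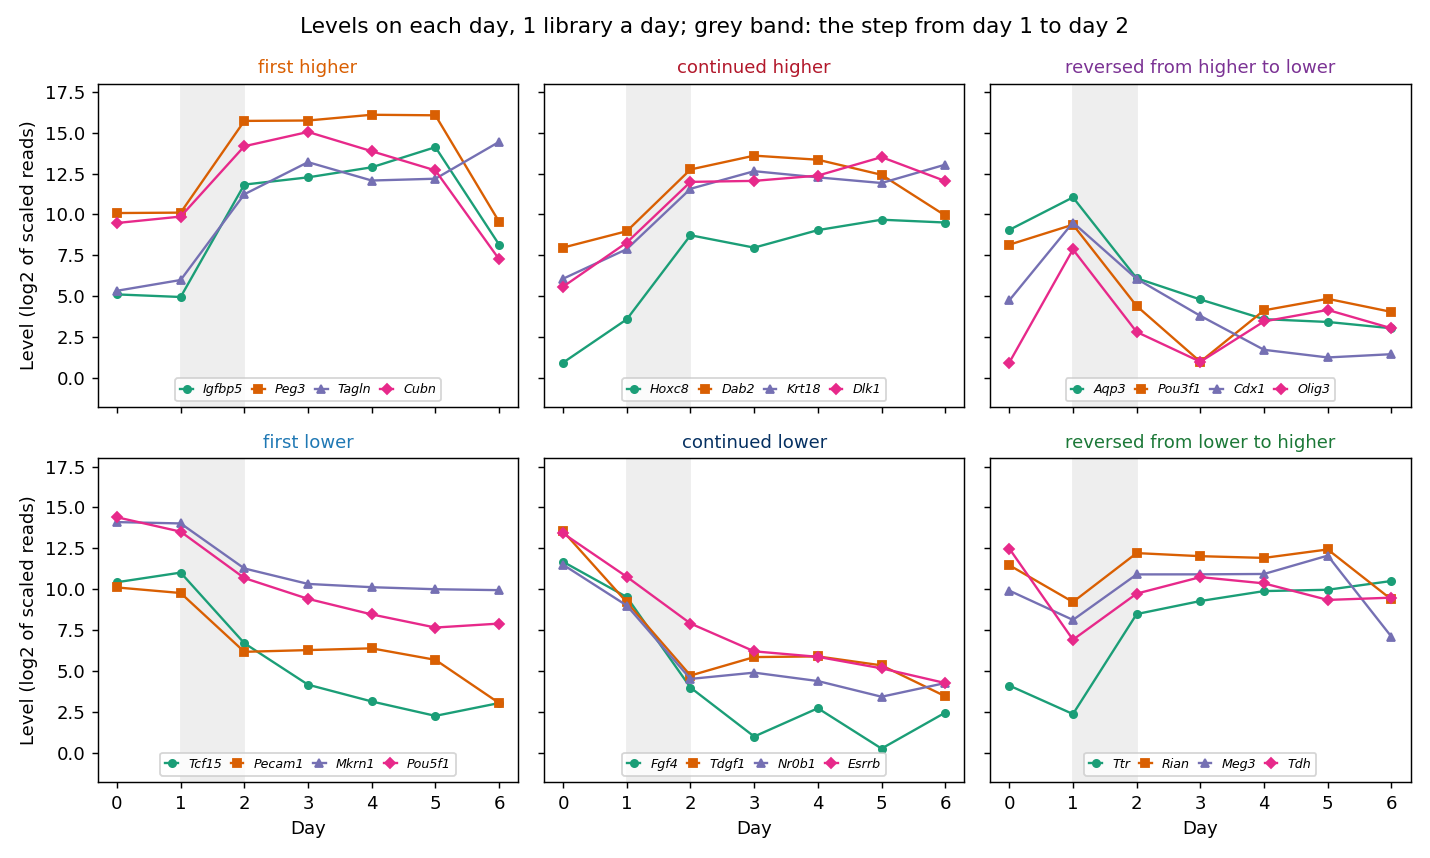
Levels (y axis, log2 of scaled reads) of 4 genes from each of the 6 groups on days 0 to 6 (x axis), 1 library a day, with the step from day 1 to day 2 shaded. Igfbp5 goes from 4.95 to 11.83 and Tcf15 from 11.02 to 6.70 within the shaded band.

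The list counts from here on stand against 10.5% higher and 4.22% lower over all symbols kept. At 7 or more on both days these shares are 7.01% and 3.22%. The higher counts of the Nodal, FGF, cell cycle, p53 and RNA methylation lists lie near these shares. Smooth muscle and actin genes stood higher as a group on day 2. Of the 23 listed genes that the table holds, 22 were kept, 13 were at least 2-fold higher and 1 lower, with a median difference of 1.35. Among the 18 that were at 7 or more on both days, 9 were higher and 1 lower. Besides Tagln, these included Acta2, smooth muscle actin (19 and 223 reads, log2 3.59, interval 2.91 to 4.34), Cyr61, a matricellular target of actin signalling (8.09 to 10.94), the tropomyosin genes Tpm1 (9.30 to 12.06), Tpm4 (9.94 to 11.98) and Tpm2 (7.31 to 8.93), and Cald1, caldesmon (10.14 to 12.47). Of the 13, 10 were first higher, and Cnn1, Myl9 and Tpm2 continued upward from day 1. Des, desmin, went the other way, from 7.87 on day 0 to 8.88 and then 7.45 on day 2. Actg2, the enteric smooth muscle actin, differed little (log2 −0.06, interval −0.48 to 0.37), and so did Tagln2 (log2 0.13, interval 0.00 to 0.26). On day 3 Acta2 reached 13.53 after 8.62 on day 2.

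Of the 21 RefSeq promoters of the 19 smooth muscle list genes matched, 4 held a CArG box, the site that serum response factor binds, against 535 of all 32851 promoters (1.63%). The search covered both strands of 300-base windows (250 bases before the transcription start and 50 after it) in build GRCm38.p6. The sequences are shown because they are the promoters of that list in which the motif, in capitals, was found; each is the 250 bases before the start, 5′ to 3′ on the gene's strand.
Myl9: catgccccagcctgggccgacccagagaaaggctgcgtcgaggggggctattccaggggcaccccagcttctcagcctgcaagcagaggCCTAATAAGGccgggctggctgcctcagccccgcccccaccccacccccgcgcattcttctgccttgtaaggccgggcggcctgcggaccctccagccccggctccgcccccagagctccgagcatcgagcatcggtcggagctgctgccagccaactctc
Cnn2: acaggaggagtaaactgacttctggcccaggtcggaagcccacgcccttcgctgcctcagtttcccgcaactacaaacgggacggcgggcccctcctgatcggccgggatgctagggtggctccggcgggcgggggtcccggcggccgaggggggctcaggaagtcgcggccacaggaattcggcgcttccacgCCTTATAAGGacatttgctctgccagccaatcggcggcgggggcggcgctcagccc
Vcl: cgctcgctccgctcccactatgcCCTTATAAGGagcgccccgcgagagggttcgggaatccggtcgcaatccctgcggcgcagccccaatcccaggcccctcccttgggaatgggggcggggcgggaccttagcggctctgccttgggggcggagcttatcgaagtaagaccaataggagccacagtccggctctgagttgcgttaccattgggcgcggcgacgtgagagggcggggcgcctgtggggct
Srf: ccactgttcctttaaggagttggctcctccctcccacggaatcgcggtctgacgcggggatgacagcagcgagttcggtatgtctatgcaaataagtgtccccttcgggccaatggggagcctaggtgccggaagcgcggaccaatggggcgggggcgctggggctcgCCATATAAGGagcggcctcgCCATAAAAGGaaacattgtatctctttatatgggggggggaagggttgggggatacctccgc
They lie at chr2:156775214-156775463 (plus strand, Myl9), chr10:79988350-79988599 (plus, Cnn2), chr14:20929148-20929397 (plus, Vcl) and chr17:46556163-46556412 (minus, Srf). Myl9, a myosin light chain, stood 4.62-fold higher on day 2 (6.87 to 9.08), Cnn2, calponin 2, 4.05-fold (9.32 to 11.34) and Vcl, vinculin, 2.07-fold (11.01 to 12.06). Srf itself, which has 2 matches, was at 10.37 and 10.69, a log2 difference of 0.32 (interval 0.18 to 0.46). Over the groups, 2.20% of the promoters of first higher genes held the motif (16 of 727) and 7.41% of those of the lower then higher genes (4 of 54). The share was 1.68% for first lower (5 of 298) and 1.55% for continued higher genes (6 of 387). It was 0 of 71 for continued lower and 0 of 80 for higher then lower genes, against 1.22% over all promoters of the symbols kept. Tagln had no promoter entry to search. A match is a run of letters and not a measured binding site.

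Extraembryonic endoderm genes were higher in 22 of 26 kept, from 28 in the table, with none at least 2-fold lower and a median of 2.32. Of the 19 above the filter on both days, 15 were higher. This lineage lays down the yolk sac's basement membrane and takes up maternal nutrients. Its basement membrane genes were among them: Lama1 (11.83 to 15.38), Lamb1-1 (11.46 to 14.59) and Lamc1 (13.59 to 15.22), the 3 chains of laminin-111, were each first higher, and Col4a1 (12.35 to 14.94) and Col4a2 (11.48 to 14.04), the chains of collagen IV, continued upward from day 1.

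The endocytic receptor of visceral endoderm also stood higher. Cubn, cubilin, went from 544 reads on day 1 to 10486 on day 2 (19.7-fold, log2 4.30, interval 4.18 to 4.43), Amn, its partner amnionless, from 6.78 to 7.92, and Lrp2, megalin, from 12.50 to 13.64, while the adaptor Dab2 went from 293 to 3916 reads (13.7-fold, log2 3.77, interval 3.60 to 3.95). Cubn, Amn and Lrp2 had been within 2-fold at the first step. For Dab2 the levels from day 0 to day 6 were 7.98, 8.98, 12.75, 13.60, 13.35, 12.43 and 9.94.

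The transcription factors of this lineage divided between the 2 steps. Gata6, which acts first in primitive endoderm, had 6.80, 10.90 and 11.34 on days 0, 1 and 2, so its second step was a log2 difference of 0.45 (interval 0.33 to 0.56). Gata4 had 7.09, 8.61 and 11.34, with the larger difference at the second step (log2 2.73, interval 2.53 to 2.94), and Sox17 had 4.11, 6.81 and 9.28. Of the 5 defining markers fixed for this cell type, Gata4, Sox17, Sox7 and Dab2 were at least 2-fold higher on day 2 and Gata6 was not. Ttr, transthyretin, a late visceral endoderm product, went from 3 reads on day 1 to 203 on day 2 (log2 6.11, interval 4.55 to 8.40) after 4.11 on day 0.

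A list of simple epithelial and trophectoderm genes is thinly covered, with 8 of its 15 genes in the table. Of the 7 kept, 6 were at least 2-fold higher, with a median of 3.29, and 3 of the 4 at 7 or more on both days were. Krt8 (298 and 2856 reads) and Krt18 (137 and 1726 reads), the keratin pair of simple epithelia, and Krt19 (4.87 to 8.32) are also made by extraembryonic endoderm. Gata3, a trophectoderm factor, went from 35 reads to 556 (log2 4.02, interval 3.53 to 4.56). The other 3 of the 4 markers fixed for that cell type, Cdx2, Elf5 and Krt7, were not analysed here.

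Of 16 BMP and Id genes kept, from 18 in the table, 11 were at least 2-fold higher on day 2 and none was lower, with a median of 1.74; of the 10 at 7 or more on both days, 6 were higher. Among the ligands, Bmp2 went from 3 reads on day 1 to 78 on day 2 (log2 4.73, interval 3.13 to 7.04), while Bmp4 was at 10.65, 7.55 and 6.82 on days 0, 1 and 2 (log2 −0.74 for the second step, interval −1.20 to −0.28). Among receptors, Bmpr2 was 2.17-fold higher and Bmpr1a 1.80-fold. The signal-carrying Smad1 (log2 0.21, interval −0.04 to 0.46) and Smad5 (log2 0.30) differed by less than 2-fold, and Smad9 had 6 reads and then 74.

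Target and feedback genes of BMP signalling carried most of that count. Id3 (chr4:135699736-135701307, plus strand) had levels of 7.11, 8.67 and 11.72 on days 0, 1 and 2 and of 11.46 to 14.32 afterwards. The level of 14.32 was on day 6, a library whose levels are not read as a late rise or fall. Id3 stood 8.26-fold higher on day 2 than on day 1 (237 and 1913 reads, log2 3.05, interval 2.85 to 3.25). Id2 was first higher (8.26 to 10.61), and Id1 had 10.44, 9.32 and 11.10 on days 0, 1 and 2, lower and then higher. Id1, Id2 and Id3 were thus each above their day 0 level on day 2. Msx2, a homeobox target, had 16 and 136 reads, and the inhibitors Smad6 (7.40 to 9.11), Bambi (8.15 to 9.62) and Fst, follistatin (5.91 to 7.79), were also higher.

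The related Nodal pathway was mixed, with 2 of 16 genes at least 2-fold higher, 4 lower and a median of 0.06. The higher count is near the 10.5% over all symbols kept, of which 4.22% were lower. Of the 15 at 7 or more on both days, 2 were higher and 3 lower. Lefty1, a Nodal antagonist and direct target (chr1:182865169-182868532, plus strand), stood at 8.48, 12.21, 11.07, 6.80, 4.78, 3.43 and 2.46, so its day 2 level was below day 1 (2.19-fold, log2 −1.13, interval −1.23 to −1.03) and still above day 0. Its neighbour Lefty2 had 10.58, 10.51 and 11.11 on the same days (log2 0.60, interval 0.47 to 0.73). Nodal itself was at 10.17 and 9.84 and at 6.58 on day 3. The co-receptor Tdgf1, called Cripto, was lower much earlier, with 13.54, 9.21 and 4.72 on days 0, 1 and 2 (343 and then 15 reads, log2 −4.48, interval −5.34 to −3.74). The nuclear partner Foxh1 (10.15 to 8.70) and the convertase Pcsk6 (10.65 to 9.05) were first lower.

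The retinoid response differed between its members at the second step. The 21 genes kept had a median difference of 3.40 from day 0 to day 1 and of 0.68 from day 1 to day 2, and on day 2 at least 2-fold higher levels were found for 8 of them and lower ones for 2 (6 and 1 of the 17 at 7 or more on both days). Cyp26a1, which degrades retinoic acid, had 4.75, 12.74 and 13.73 and missed 2-fold narrowly (log2 0.99, interval 0.94 to 1.05), and its relative Cyp26b1 went from 12.22 to 13.62. Crabp2, a retinoic acid carrier, had 5.80, 8.59 and 11.43, with steps of near-equal size, and stood at 9.06 on day 3. The orphan receptors Nr2f1, above, and Nr2f2 (60 and 695 reads, log2 3.57) gave the largest second steps of the list. Stra8, a meiosis gene (12.70 to 11.75), and Zfp703 (12.17 to 11.45) were already below their day 1 levels, by less than 2-fold.

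The 3 retinoic acid receptors took separate courses on day 2. Rarb had 6.53, 9.03 and 10.31 on days 0, 1 and 2 (log2 1.28 for the second step, interval 1.08 to 1.47). Rara had 10.32, 10.69 and 10.56 (log2 −0.13, interval −0.27 to 0.00). Rarg had 11.95, 11.68 and 9.09, with 1908 reads and then 310, so it was 6.02-fold lower on day 2 (log2 −2.59, interval −2.77 to −2.41). Of the 25 RefSeq promoters of the 14 retinoid list genes matched, 2, those of Rarb and Cyp26a1, held a DR5 retinoic acid element on either strand, against 32 of all 32851 promoters (0.0974%), and their 250 bases before the start are shown with that element in capitals, in GRCm38.p6 and 5′ to 3′ on the gene's strand.
Rarb: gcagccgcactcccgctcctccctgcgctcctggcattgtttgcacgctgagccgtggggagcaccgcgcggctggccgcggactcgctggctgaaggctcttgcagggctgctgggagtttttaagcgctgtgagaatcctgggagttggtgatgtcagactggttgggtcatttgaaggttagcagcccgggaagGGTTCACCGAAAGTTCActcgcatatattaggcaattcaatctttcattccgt
Cyp26a1: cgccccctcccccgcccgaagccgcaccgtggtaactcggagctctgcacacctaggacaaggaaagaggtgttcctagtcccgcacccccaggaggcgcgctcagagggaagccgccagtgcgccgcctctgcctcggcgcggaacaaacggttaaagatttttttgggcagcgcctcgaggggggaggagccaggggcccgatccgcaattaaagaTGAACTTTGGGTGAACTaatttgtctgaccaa
The first is chr14:16575477-16575726 on the minus strand and the second chr19:37697558-37697807 on the plus strand.

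The Hox genes set position along the body axis and lie in clusters in the order of their expression, and 22 of the 26 in the table were kept. On day 2, 9 were at least 2-fold higher and none was lower, and each of the 9 had also been at least 2-fold higher on day 1, for Hoxc8 and Hoxc9 with a first-step interval that holds 0. Of the 14 at 7 or more on both days, 2 were higher. The median of the 22 was 5.69 at the first step and 0.67 at the second. Hoxc8 (7 and 241 reads, log2 5.14, interval 4.07 to 6.47), Hoxc9 (5 and 190 reads, log2 5.28, interval 4.03 to 6.92) and Hoxb13 (19 and 335 reads, log2 4.17, interval 3.51 to 4.92) had the largest second steps of the list, and their first steps started from 1 or 2 reads on day 0. Of the 22, 8 were below 7 on day 1 and entered through day 2 alone, so the filter itself set that each was higher on day 2. They were Hoxa2, Hoxa9, Hoxb7, Hoxb13 and the Hoxc genes kept, Hoxc4, Hoxc5, Hoxc8 and Hoxc9. Hoxb1 (534 and 582 reads, log2 interval −0.01 to 0.33) and Hoxa5 (11.11 and 11.10, interval −0.13 to 0.10) differed by no more than counting error, Hoxb2 was a little higher (10.18 and 10.49) and Hoxa4 lower by less than 2-fold (10.12 and 9.43).

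**Figure D3:**
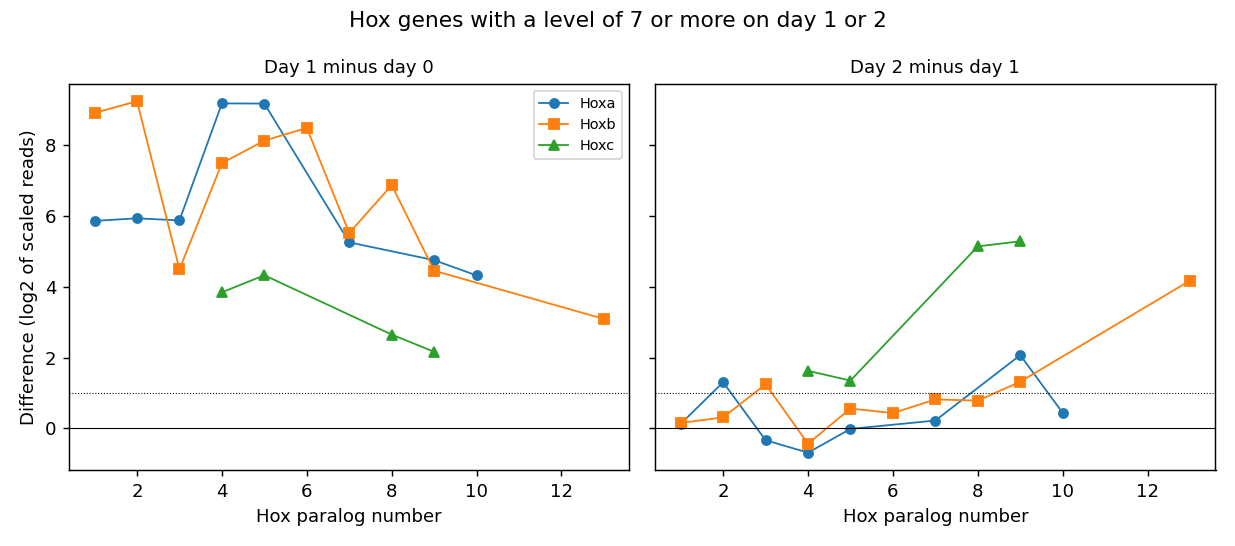
Difference (y axis, log2 of scaled reads) of the 22 Hox genes kept, by paralog number (x axis) and cluster, at the first step (left panel) and the second step (right panel), 1 library a day. The dotted line marks 2-fold. At the second step Hoxc8, Hoxc9 and Hoxb13, all kept through day 2 alone, stand at 5.14, 5.28 and 4.17. Most genes of low paralog number lie within 2-fold there.

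Cdx1, a posterior homeobox gene and retinoic acid target (chr18:61178516-61195853, minus strand), had a pulse on day 1. Its levels were 4.75, 9.51, 6.07, 3.80, 1.72, 1.26 and 1.46 from day 0 to day 6, and the day 2 library had 38 reads against 423 on day 1 (10.9-fold lower, log2 −3.44, interval −3.96 to −2.96). Olig3, a neural patterning factor, had a narrower pulse, with 135 reads on day 1 and 4 on day 2 (log2 −5.04, interval −6.94 to −3.65). The water channel gene Aqp3 had 9.06, 11.05 and 6.10 on days 0, 1 and 2 (log2 −4.94, interval −5.44 to −4.48), and Cyp11a1, a steroid enzyme, 6.07, 8.53 and 4.99. Of the 69 genes that stood higher on day 1 and lower on day 2, 46 were back within 2-fold of day 0 on day 2, 13 were still above it, as Lefty1 was, and 10 were below it, as Aqp3 was.

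Regulators of the formative or primed epiblast, the state that follows naive pluripotency, made up 5 of these 69. Pou3f1, called Oct6, had 8.15, 9.38 and 4.40 on days 0, 1 and 2 (386 and then 12 reads, log2 −4.97, interval −5.94 to −4.15). Zic2 (7.59, 9.75 and 8.04), Zic5 (7.09, 8.54 and 5.95), Sox3 (7.74, 9.66 and 8.23) and the DNA methyltransferase Dnmt3a (11.97, 12.99 and 11.53) had the same shape. Of the 12 genes kept from this list, from 16 in the table, 7 were at least 2-fold lower on day 2 and 3 higher. The median was −1.44, and −0.69 over all 16. Of the 10 at 7 or more on both days, 5 were lower and 3 higher. The 4 genes below the filter did not have this pulse. Otx2 (7.32, 3.78 and 4.62), Foxd3 (9.60, 4.37 and 3.62) and Grhl2 (8.19, 4.95 and 5.21) were already lower on day 1. Lef1 was under 2-fold at each step. The higher ones included Cdh2, N-cadherin (8.12 to 11.34), and Sox4 (10.86 to 12.33), which also mark mesenchyme and neural progenitors.

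Most pluripotency genes kept stood at least 2-fold lower on day 2. Of 15 core genes 10 were at least 2-fold lower and 1 higher (median −1.41), and of 16 naive genes kept, from 21 in the table, 11 were lower and none higher (median −1.60). Among those at 7 or more on both days, 10 of 14 and 7 of 12 were lower. Pou5f1, the factor Oct4, had 14.40, 13.52, 10.68, 9.41, 8.46, 7.66 and 7.90 from day 0 to day 6; the day 2 library had 934 reads against 6829 (7.15-fold lower, log2 −2.84, interval −2.94 to −2.74). Utf1, a chromatin protein of stem cells, was 10.6-fold lower (12.46 to 9.05). Pou5f1 and Utf1 were both already below day 0 on day 1, by less than 2-fold. The first step was log2 −0.88 for Pou5f1 (interval −0.92 to −0.84) and −0.998 for Utf1 (interval −1.06 to −0.94).

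Several naive factors had already been at least 2-fold lower on day 1. Nanog had 11.46, 8.73 and 7.10 on days 0, 1 and 2, Esrrb 13.42, 10.76 and 7.90, and Zfp42 13.30, 10.55 and 9.22. Nr0b1, a naive nuclear receptor gene, had 298 reads on day 1 and 13 on day 2 (log2 −4.49, interval −5.41 to −3.69). Fgf4, the growth factor that stem cells make under Oct4 and Sox2, was among the furthest down, with 427 reads on day 1 and 9 on day 2 (log2 −5.54, interval −6.67 to −4.60). Klf4 (9.57 and 8.86) and Klf5 (10.24 and 9.77), lower at the first step, differed by less than 2-fold at the second. The 5 stem cell markers fixed as a check (Pou5f1, Sox2, Nanog, Zfp42 and Esrrb) were each at least 2-fold lower on day 2, and each was still listed at 7 or more. Tdh, the threonine dehydrogenase of stem cells, was the core gene that stood higher: 12.49, 6.91 and 9.73 on days 0, 1 and 2 (log2 2.82, interval 2.46 to 3.20).

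Genes first lower on day 2 were led by Tcf15, a helix-loop-helix factor of primed cells (chr2:151969344-151974832, plus strand), with 10.43, 11.02, 6.70, 4.16, 3.14, 2.26 and 3.04 over the 7 days (1204 and then 59 reads, log2 −4.32, interval −4.72 to −3.94). Mkrn1, an abundant ubiquitin ligase gene, was at 14.11, 14.02 and 11.27 (6.74-fold lower), Pecam1, an adhesion molecule of stem cells and endothelium, at 10.11, 9.77 and 6.17 (log2 −3.60), and Cpne5, a copine, at 9.56, 9.52 and 5.90 (log2 −3.61). From day 0 to day 1 the differences of these 4 genes had run from −0.34 for Pecam1 to 0.59 for Tcf15.

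FGF feedback genes were lower in 5 of 15 kept and higher in 2, with a median of −0.71, and 3 were lower and 1 higher of the 11 at 7 or more on both days. Spry4, a feedback inhibitor of the pathway, had 12.08, 11.09 and 6.82 on days 0, 1 and 2 (1270 and then 64 reads, log2 −4.28, interval −4.66 to −3.92). Dusp6, an ERK phosphatase, had 11.36, 12.20 and 10.88, and Etv4 11.75, 10.94 and 7.55. The receptors Fgfr2 (10.02 to 11.66) and Fgfr3 (6.34 to 8.41) were higher on day 2, and Fgfr1 differed by less than 2-fold.

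Genes of the LIF pathway that had been low on day 1 differed on day 2. Lifr, the LIF receptor, had 11.71, 9.74 and 11.56 (log2 1.82 for the second step, interval 1.68 to 1.97). Stat3 had 11.40, 9.69 and 10.61, which is under 2-fold, and Socs3, its direct target, stayed low at 10.94, 7.68 and 7.87. Pim1 had the opposite course, 9.60, 10.96 and 9.16. In all, 3 of 13 genes kept were higher and 2 lower, with a median of 0.35, and 2 each way of the 12 at 7 or more on both days.

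Imprinted growth genes were higher in 8 of 11 kept and lower in none, with a median of 2.17; of the 10 at 7 or more on both days 7 were higher. These genes are expressed from 1 parental copy and many act on fetal growth. Besides Peg3, the neighbouring Zim1 was first higher (5.95 to 7.72). Dlk1 had 5.59, 8.28 and 11.99 on days 0, 1 and 2 (log2 3.71, interval 3.49 to 3.93), Igf2 6.33, 8.09 and 11.09, and H19 5.33, 7.32 and 10.27. The noncoding RNAs Meg3 (9.92, 8.12 and 10.91) and Rian (11.47, 9.22 and 12.21), which lie beside Dlk1 on chromosome 12, were lower on day 1 and then above day 0 on day 2. Ndn, Grb10 and Igf2r differed by less than 2-fold, all upward.

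Of the 48 genes that stood lower on day 1 and higher on day 2, 36 were within 2-fold of day 0 on day 2, 7 above it and 5 below it, as Tdh was. They include Fgf10 (42, 16 and 231 reads on days 0, 1 and 2) and Lrrn2, a leucine-rich repeat gene (76, 11 and 148 reads). For 3 of the 48, Hs3st1 (13, 5 and 126 reads), Fhl2 (12, 6 and 86 reads) and Ttr, the counting interval of the first step held 0, so a dip on day 1 was not detectable at this depth. For 2 of the 48 the day 1 count was 3 reads or fewer.

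Mesenchymal genes were higher in 9 of 13 kept and lower in 1, with a median of 1.44, and 3 of the 7 at 7 or more on both days were higher. Cdh1, E-cadherin, the epithelial adhesion molecule, was the lower one, at 12.77, 12.85 and 11.44, while Cdh2 and Vim, vimentin (11.53 to 13.18), were higher. Foxc2 (17 and 304 reads, log2 4.19, interval 3.49 to 4.99), Sox9 (5.59 to 8.33) and Snai1 (6.71 to 8.05) are regulators of mesenchyme and neural crest. Collagen and matrix genes were higher in 6 of 10 kept and in 5 of the 9 at 7 or more on both days, among them Ecm1 (7.12 to 9.81), Col1a2 (7.01 to 9.45) and the collagen chaperone Serpinh1 (11.83 to 13.98). Of the 4 fibroblast markers fixed as a check, Col1a2 was higher, Col1a1 was at 7.97 and 8.62, and Col3a1 and Thy1 were below 7 on both days. The part of any other cell type in these levels was not tested.

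Neural genes were divided, with 6 of 13 kept higher, 2 lower and a median of 0.44, and with 4 higher and 1 lower of the 10 at 7 or more on both days. Nes, the progenitor filament nestin (7.41 to 9.78), Sox11 (8.48 to 10.36), Ncam1 (8.37 to 10.35) and Onecut2 (5.59 to 9.03) were higher, Pax6 just past 2-fold (8.58 to 9.60), and Sox1 was at 8.86 and 8.06. The neuronal tubulin gene Tubb3 differed by 0.44 (9.80 and 10.24). Immediate early genes were higher in 4 of 9 kept and in 2 of the 6 at 7 or more on both days, led by Fosl2 (21 and 380 reads, log2 4.21, interval 3.58 to 4.92) and Jun (7.93 to 10.56). Of 5 blood and endothelial genes kept, Runx1 was higher (6.59 to 7.79) and Pecam1 lower; the defining markers Cdh5, Ptprc and Tal1 were not analysed here.

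Cell cycle genes had a median of −0.44 over 28 genes, with 4 at least 2-fold lower and 2 higher, and 4 lower and 1 higher of the 27 at 7 or more on both days. The D-type cyclins differed in direction, since Ccnd1 had 11.57, 10.23 and 7.81 on days 0, 1 and 2 (log2 −2.42, interval −2.71 to −2.15), and Ccnd2 8.51, 8.77 and 10.98 (log2 2.21, interval 2.01 to 2.41). Ccnd3 (11.90 to 10.68), Ccne1 (11.59 to 10.51) and the S phase regulator E2f1 (9.92 to 8.77) were lower, and Cdkn2b, an inhibitor of cyclin D kinases, went from 21 reads to 80. The 6 genes of the replicative helicase, Mcm2 to Mcm7, each stood lower by less than 2-fold, from −0.76 for Mcm3 to −0.17 for Mcm7.

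**Figure D4:**
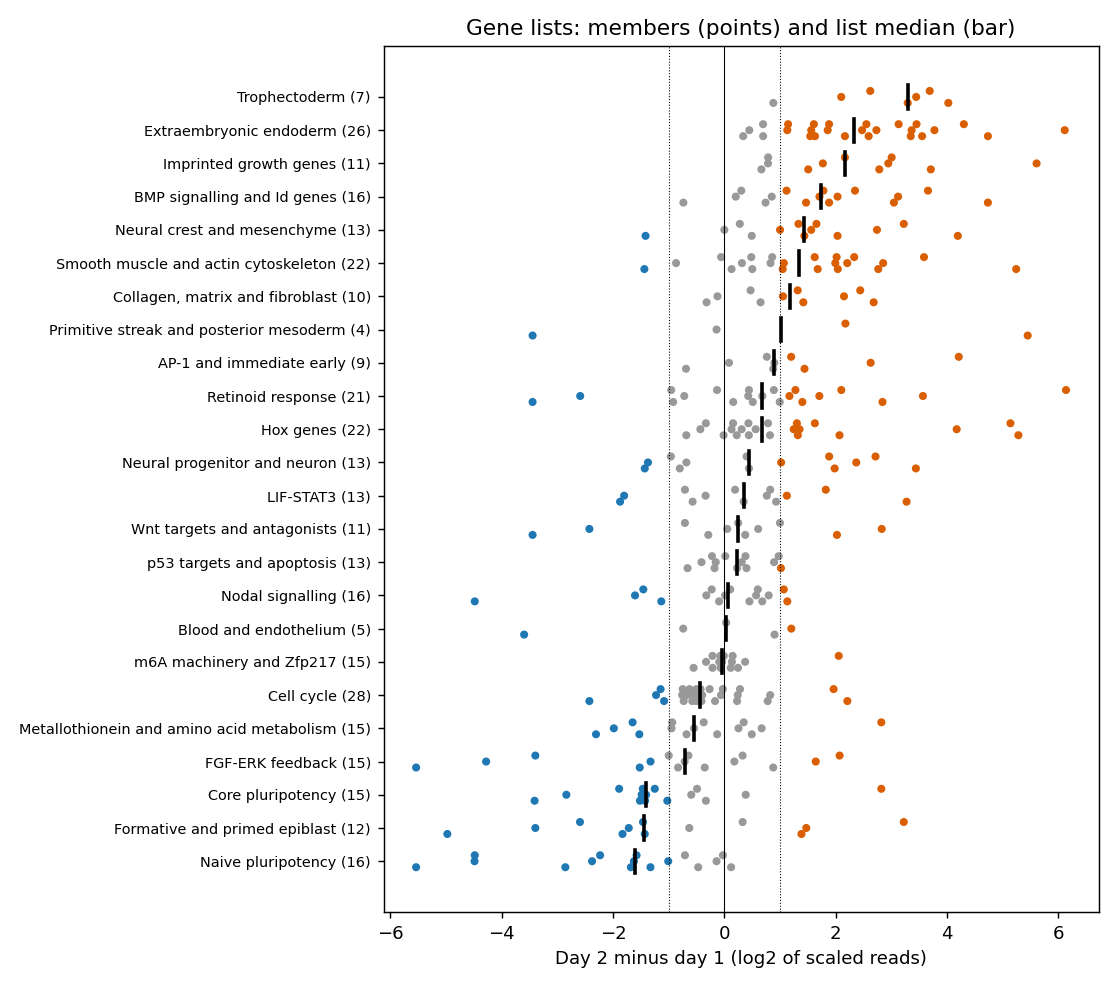
Difference from day 1 to day 2 (x axis, log2 of scaled reads) of each gene in 24 lists, with the number of genes kept in parentheses, 1 library a day. Points past the dotted 2-fold lines are coloured and black bars are list medians, which run from −1.60 for naive pluripotency to 3.29 for trophectoderm.

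The later libraries entered only the choice of 1 transcript per symbol and not the filter or the groups. Days 3 and 5 were compared by group, and the step from day 2 to day 3 is not part of these shares. From day 3 to day 5, 323 of the symbols kept (3.00%) stood at least 2-fold higher and 236 (2.19%) lower, with a median of 0.057. The first higher group had a further median difference of 0.21, with 10.1% of its symbols at least 2-fold higher and 6.48% lower, and the continued higher group 0.32, with 8.29% and 5.44%. The first lower group had a median of −0.18, with 5.59% higher and 10.2% lower, and the continued lower group −0.15, with 11.1% and 17.3%. In the reversed groups the medians were −0.18 (15.9% higher, 20.3% lower) after a pulse on day 1 and −0.048 (6.25% and 10.4%) after a dip. Among symbols below 2-fold at the second step the shares were 1.97% and 1.15%. Igfbp5 and Ecm1 were higher again on day 5 than on day 3 (12.27 to 14.12 and 13.15 to 15.38), and Cubn was lower (15.05 to 12.69).

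**Figure D5:**
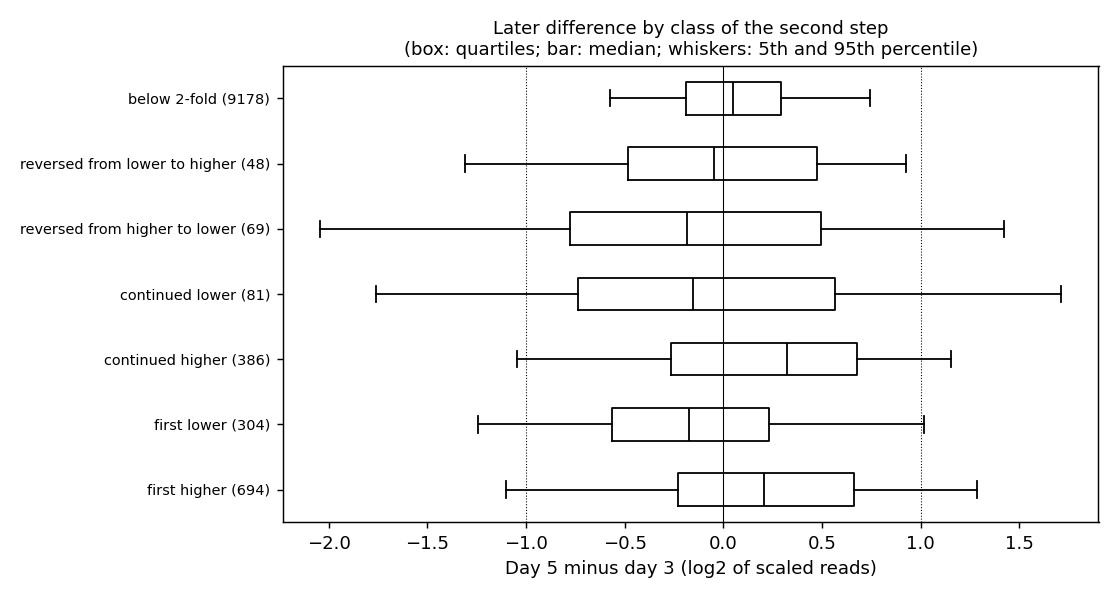
Difference from day 3 to day 5 (x axis, log2 of scaled reads) for the symbols of each group of the second step, with the number of symbols in parentheses, 1 library a day. Boxes span the quartiles with the median as a bar (0.32 for continued higher, −0.18 for first lower), and whiskers reach the 5th and 95th percentiles.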

How the data were processed

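Stranded libraries were prepared from ribosomal-RNA-depleted total RNA, per the labels' protocols, with 1 library on each of 7 days. Per the submitters' processing notes, BWA 0.7.3 aligned the reads and the build was mm9. How reads were counted and scaled, with which annotation and strand setting, was not given in the sources used here, so reads of overlapping genes, near-identical copies and transcripts of a gene may be shared. The authors deposited log2 values per RefSeq transcript. Raised from the log, values of up to 1000 reads lay within 0.05 of whole multiples of 1 step per library (100%), which gave the recovered reads; a number added to the counts before scaling cannot be told apart.

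Differences are day 2 minus day 1 of the deposited log2 values, and counts are by size (2-fold and 4-fold). The members, the 24 gene lists and the markers were chosen with earlier results of these data known. Named genes are the 5 markers given with the task, the 8 genes of each group with the interval bound farthest from 0 (without predicted, clone and small RNA names), up to 6 genes per list with the largest differences, Zfp217 and fixed examples; other list genes, and Atp4a and 2200002D01Rik at the filter's edge, were named after their values were seen. Alternatives changed the level filter, the choice of transcript, the scaling, a length correction, a pseudocount and the bound for an earlier move. The calculations were tested on simulated data. Promoters came from RefSeq (GRCm38.p6), matched by gene ID for 8611 of the 10760 symbols, and gene positions are the table's, in mm9. Tools were Python 3.11.15, numpy 2.4.6, pandas 2.3.3, scipy 1.17.1 and matplotlib 3.10.9. Values of 2 listed genes are not reported here.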

Additional observations from a re-analysis of the deposited data

How the results depend on the processing

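No paired analysis was possible because each day had 1 library and the labels give no replicate numbers, so no library could be left out either. The counts of symbols at least 2-fold higher or lower, 1128 and 454, stayed within 1.5 times under each scaling, length, pseudocount and transcript alternative. No named gene at least 2-fold apart changed direction, while genes under 2-fold were not checked for this. With a level of 7 or more required on both days, fewer symbols enter: 679 were higher, 411 first higher, 241 continued higher, 37 continued lower, 41 higher then lower and 27 lower then higher. Without a level filter, 124 continued lower and 76 were lower then higher. Quantile normalization left 223 continued higher, and 62.2% of its 2-fold differences were upward against 71.3%; a pseudocount of 32 scaled units left 222 continued higher; the cause was not tested. Setting an earlier move at 0.5 log2 units moves symbols between groups by construction: 395 first higher, 623 continued higher, 141 continued lower, 109 higher then lower and 110 lower then higher.

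Of 164 named genes, 23 moved beyond their counting interval with the length correction, 46 with the pseudocount, 15 with quantile normalization, 1 with reads summed over transcripts and 0 with median centring. Bcl2l11, Col5a2, Jak2, Runx1 and Smad3 came under 2-fold with the length correction (0.86 for Bcl2l11, 0.87 for Col5a2). Of these, 3 also did so with the pseudocount and 2 with quantile normalization. Choosing transcripts on days 0 to 5, or requiring at least 10 reads on days 0, 1 and 2, both chosen after seeing the data, kept each count within 1.5 times. Depth limits genes with few reads on day 1, and the spread between cultures was not measured.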

Other observations

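In a list of metallothionein and amino acid metabolism genes, 4 of 15 kept (Chac1, Trib3, Mthfd2 and Mt2) were at least 2-fold lower and 1 was higher, with a median of −0.54; of the 12 at 7 or more on both days, 2 were lower and 0 higher. Mthfd2, a mitochondrial folate enzyme, went from 11.21 to 9.56, and Shmt2, which feeds it, from 12.03 to 11.10, which is under 2-fold. Chac1 (91 and 18 reads) and Trib3 (166 and 41 reads), both targets of the stress factor ATF4, were lower, while Asns, another such target, differed by −0.37. The metallothionein genes, which bind zinc and copper, differed from each other: Mt2 was at 10.92 and 9.39, and Mt1 at 9.83 and 10.09.

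The RNA methylation machinery named in the series title showed little difference at this step. Over 15 genes the median was −0.04. Mettl3, the methyltransferase, was at 9.92 and 9.60, its partner Mettl14 at 8.71 and 8.70, and Zfp217 at 10.75 and 10.54 (log2 −0.21, interval −0.35 to −0.08). Igf2bp3, a fetal RNA-binding protein that reads the mark, was the gene past 2-fold, at 10.39, 10.05 and 12.10 on days 0, 1 and 2 (log2 2.05, interval 1.93 to 2.18).

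Among p53 and apoptosis genes 1 of 13 kept, Bcl2l11, was at least 2-fold higher (9.45 to 10.47), and Cdkn1a differed by 0.23. Wnt antagonists were among the higher genes of their list, Dkk1 with 45 and 312 reads and Sfrp5 at 9.40 and 11.42, while the target Axin2 was at 7.77 and 7.07; over the 11 genes kept 2 were higher and 2 lower, and 1 each way of the 8 at 7 or more on both days. The primitive streak list is thinly covered, with 5 of its 20 genes in the table. Of the 4 kept, 2 were higher and 1, Cdx1, was lower (log2 −3.44). Lhx1 went from 3 reads to 128 (log2 5.45, interval 3.87 to 7.74) and Wnt5b from 46 to 203, and both entered through day 2 alone. The 1 gene of the list at 7 or more on both days was under 2-fold.

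The listed transcripts of a gene did not part company at this step. Among 1910 symbols with at least 2 listed transcripts, none had a pair on opposite sides of 2-fold, in 244 they were on the same side, and the widest gap was 1.15 log2 units, in Syne1. Such transcripts can share reads.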
